A study of Drosophila melanogaster with 3 samples.

Results

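Neuropeptide precursor genes encode the secreted proteins from which neurons and endocrine cells cut their signalling peptides. A list of 35 neuropeptide and peptide hormone precursor genes of the fly, with the insulin-like peptides left out, was matched by symbol and FlyBase ID to a table of 17558 genes, and 34 were found. The symbol that was not matched is Nplp2, and counts it may have under another FlyBase ID were not analysed here, so shares and ranks are over the 34 matched genes. The libraries are 3 replicates of 1 group, polyadenylated RNA from the heads of untreated adult wild-type *Drosophila melanogaster* kept at 25°C, and 150 ng of total RNA went into each. The series text gives the strain as CantonS, the methods of the study describe wild type as w1118, and the age, the sex ratio and the hour of collection of these flies are not given in the sources used here. No other genotype or treatment was analysed here, so the comparisons are of precursors with other genes inside each library, and of the libraries with each other. Nothing in the labels says whether the replicates came from separate cultures of flies, so their spread may be partly technical.

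A neuropeptide begins as a longer precursor with a signal peptide. Prohormone convertases cut the precursor at basic residues inside the secretory pathway, carboxypeptidases trim the ends, many peptides receive a C-terminal amide, and the products wait in dense-core vesicles until calcium triggers release. Most act on G protein-coupled receptors, often far from the site of release. In the fly brain many of these peptides come from small sets of identified neurons that set sleep, feeding, water balance, courtship and the timing of the moult. In whole heads, fewer cells of a type and less RNA per cell cannot be told apart.

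The library totals ran from 6299265 to 8332583 counts, and a single count was worth 0.120 to 0.159 CPM (CPM, counts scaled to a library total of 1000000). The head markers were present. All 4 neuronal markers (elav, nSyb, Syt1, brp), all 3 glial markers and all 3 photoreceptor markers were detected, and the neuronal sum lay between 3162 and 3736 CPM. Of 5 midgut and 3 testis markers none reached 10 counts in sum, and the midgut sum was at most 0.544 CPM in any library. The flight muscle sum was 5.28, 5.31 and 21.0 CPM in replicates 1, 2 and 3. Detected means a sum of 10 or more counts over all libraries.

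Of the 34 matched precursor genes, 31 were detected. The list took 0.399% ± 0.0406 of all counts (SD, n = 3), and a single gene, Nplp3, held 70.7% ± 2.69 of that. Without Nplp3 the list took 0.116% ± 0.00125. By mean CPM, 4 precursor genes lay above 100 CPM, 17 between 10 and 100, and 10 of the detected genes under 10. The median detected precursor gene had 31.6 CPM ± 0.975 (SD, n = 3), and the median of all 9479 detected protein-coding genes had 28.3 ± 1.20.

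Precursor mRNAs are short, so the comparison between genes was made per kilobase of annotated exon. The median coding sequence of the matched precursors was 453 bases, from 192 for Nplp4 to 1461 for Nplp1, and that of detected protein-coding genes was 1404 bases. In annotated exon bases, the length used for the division, the medians lay closer. They were 1178 for the detected precursors and 2134 for detected protein-coding genes. Per kilobase, the median detected precursor gene stood at 27.5 CPM per kilobase ± 0.284 and the median detected protein-coding gene at 12.8 ± 0.325 (SD, n = 3). The precursors lie on 3R (14 genes), 2R and 2L (7 each), 3L (5) and X (1).

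**Figure D1:**
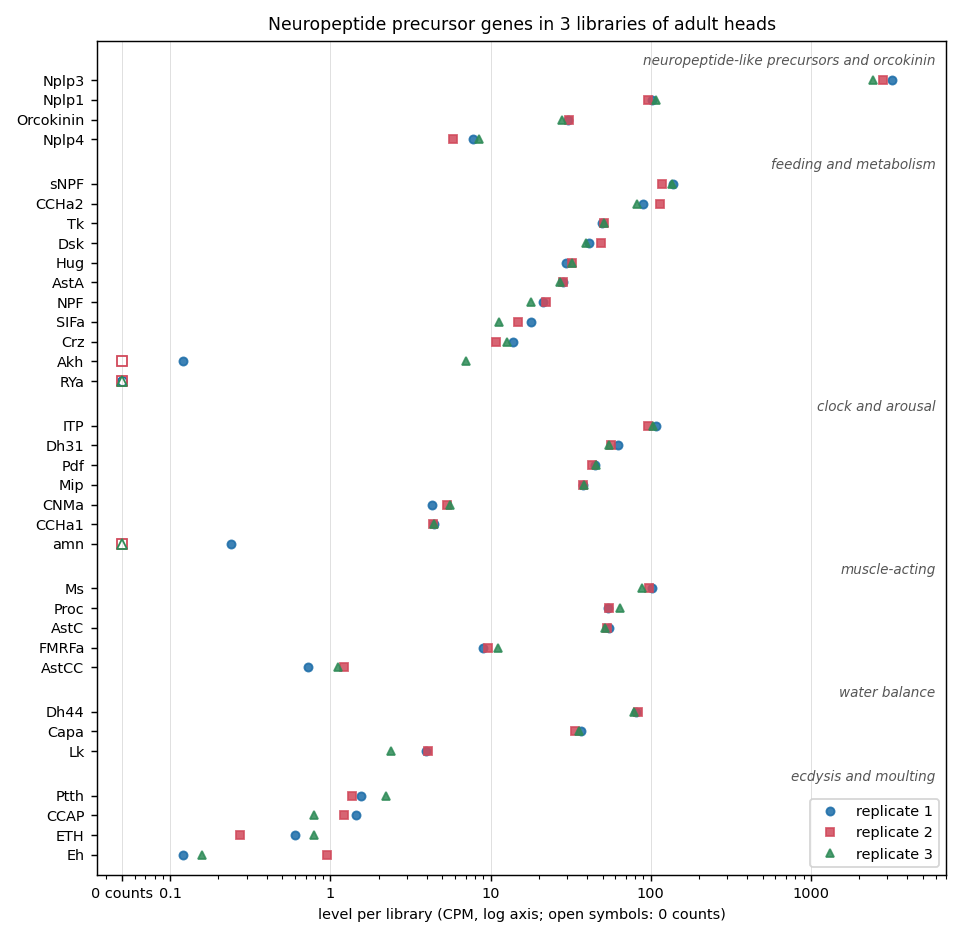
Level of each of the 34 matched precursor genes in each library, in CPM on a log axis, grouped by role. Points are the single libraries, and open symbols mark 0 counts. Nplp3 stands apart at the top, the ecdysis and moulting genes lie at or under 2.22 CPM, and Akh is the gene whose libraries lie farthest apart.

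Nplp3 was the most abundant transcript of the 34 matched precursor genes. Nplp3 is a neuropeptide-like precursor, named from peptides found by mass spectrometry in fly nervous tissue, and no receptor for its products was listed here. It lies on 3L at 16318024 to 16318690, plus strand (FBgn0042201), with 1 annotated transcript of 538 bases and 270 coding bases. Replicates 1, 2 and 3 held 26846, 20823 and 15338 counts, or 3222, 2833 and 2435 CPM. The Wilson 95% intervals of the 3 libraries did not overlap, and the lowest and the highest library differed 1.32-fold. Per kilobase, Nplp3 reached 5260 CPM per kilobase ± 731 (SD, n = 3) and exceeded 99.9% of detected protein-coding genes. It exceeded the next precursor in that order, Ms, by a log2 ratio of 6.01 ± 0.11, with the same direction in all 3 libraries.

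The other precursors of this group were far lower. Nplp1, whose products include amidated peptides of clock and peptidergic neurons, had 849, 709 and 677 counts, or 102, 96.5 and 107 CPM, and 37.7 CPM per kilobase ± 2.04. Orcokinin had 30.5, 30.9 and 27.9 CPM in replicates 1, 2 and 3. Nplp4 had 65, 43 and 53 counts, or 7.80, 5.85 and 8.41 CPM. These 3 genes thus stood below Nplp3 in each library, and Nplp4 was lowest in replicate 2.

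Among the feeding and metabolic peptides, 10 of 11 precursors were detected, with a median of 30.7 CPM per kilobase. sNPF (short neuropeptide F, a feeding and growth peptide that is also widespread in the mushroom body) is among the 12 precursors with the highest CPM. It lies on 2L at 20027915 to 20056373, plus strand, and had 1149, 866 and 852 counts, or 138, 118 and 135 CPM. Replicate 2 was the low library, and its Wilson interval did not overlap that of replicate 1.

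CCHa2, which is made mainly in fat body and gut and acts on the insulin-producing cells of the brain, had 740, 837 and 514 counts. That is 88.8, 114 and 81.6 CPM, with replicate 2 the high library and a mean of 94.8 CPM ± 17.0 (SD, n = 3). CCHa2 lies on 3R at 13389059 to 13395197, minus strand. The fat body marker list, with 2 of 3 genes detected, summed to 4652, 5041 and 4444 CPM and was also highest in replicate 2. Nearly all of that sum was apolpp (4502, 4910 and 4412 CPM), while Lsp2 had 150, 130 and 31.0 CPM, and Fbp1 was not detected. On this scale replicate 2 was the highest library for 46.8% of all genes tested for replicate spread. The midgut list, the other named source, was at 0, 0.544 and 0 CPM. Their part in the CCHa2 values was not tested.

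Tk encodes the tachykinins, which act in odour processing, aggression and gut signalling. It had 412, 373 and 322 counts, or 49.4, 50.8 and 51.1 CPM, a spread of 1.74% of the mean. Dsk, the sulfakinin precursor and the fly relative of cholecystokinin in satiety signalling, had 41.4, 48.6 and 39.5 CPM. Dsk has only 569 exon bases, and per kilobase it took rank 3 of all precursors at 75.9 CPM per kilobase ± 8.39 (SD, n = 3).

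Hug, the hugin precursor of a small cluster of subesophageal neurons linked to feeding decisions, had 29.6, 32.1 and 32.2 CPM. AstA, an allatostatin that curbs feeding, had 28.4, 28.3 and 27.0 CPM. Both varied little, by 4.66% and 2.88% of their means.

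NPF, the fly counterpart of vertebrate neuropeptide Y, had 178, 162 and 112 counts, or 21.4, 22.0 and 17.8 CPM. SIFa comes from a handful of neurons of the pars intercerebralis that reach most of the brain, and it had 149, 109 and 71 counts, or 17.9, 14.8 and 11.3 CPM. SIFa was highest in replicate 1 and lowest in replicate 3, a 1.59-fold difference whose Wilson intervals did not overlap. Of the 526 exon bases of SIFa, 111 are shared with Start1 on the opposite strand, at 34.9 CPM, and without the strand setting reads of the shared bases cannot be told apart. Crz, the corazonin precursor of stress and metabolic signalling, had 13.8, 10.7 and 12.7 CPM.

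RYa was not detected. RYa encodes the RYamides and lies on 2R at 3647346 to 3647765, and it had 0 counts in all 3 libraries, which allows a level of up to 0.360 to 0.476 CPM per library (3 counts). Its receptor gene RYa-R had 15, 12 and 8 counts, or 1.80, 1.63 and 1.27 CPM.

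Akh was the precursor whose libraries differed most. Akh encodes adipokinetic hormone, the fly counterpart of glucagon, which is made in the corpora cardiaca, endocrine cells that lie beside the oesophagus and aorta outside the brain. It lies on 3L at 4141467 to 4142070, plus strand (FBgn0004552), with 1 transcript of 536 bases. Akh had 1 count in replicate 1, 0 in replicate 2 and 44 in replicate 3, or 0.120, 0 and 6.98 CPM. Only the library of replicate 3 held more than a single count. The ratio of replicate 3 to replicate 1 was 58.2 in CPM, with an exact 95% counting interval of 9.92 to 2350, and against the floor of 3 counts in replicate 2 it was at least 17.1-fold higher.

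The level of Akh in these heads therefore rested on 1 library, and its mean of 2.37 CPM became 0.0600 CPM without replicate 3. Replicate 3 was also the high library for the flight muscle list as a whole, with 3 of 3 markers detected. Act88F, the actin of the indirect flight muscle, had 26, 23 and 116 counts, or 3.12, 3.13 and 18.4 CPM. The other flight muscle markers differed less, with 2, 2 and 6 counts for fln and 16, 14 and 10 for TpnC4. The midgut list was at 0 in replicates 1 and 3. The receptor gene AkhR, a fat body gene, had 57.0, 75.2 and 66.5 CPM and was not high in replicate 3. The part of body tissue in the Akh value was not tested.

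**Figure D2:**
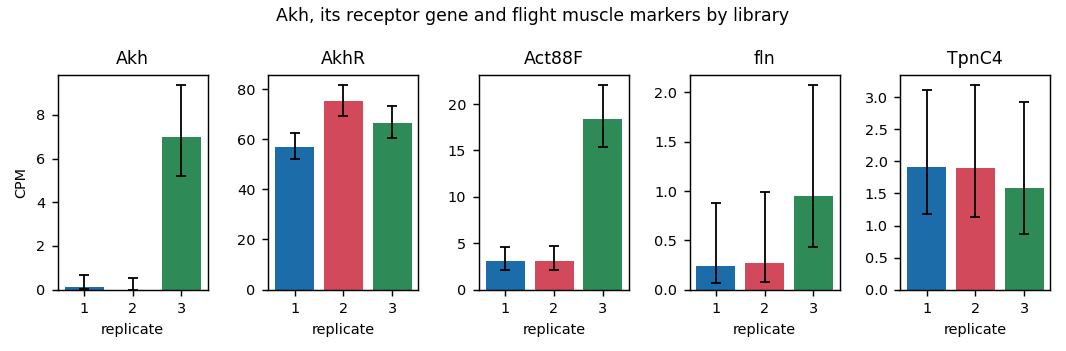
CPM of Akh, its receptor gene AkhR and the flight muscle markers Act88F, fln and TpnC4 in replicates 1 to 3. Bars are single libraries, error bars are Wilson 95% intervals for counting error, and each panel has its own axis from 0. Akh and Act88F are high in replicate 3 (6.98 and 18.4 CPM), while AkhR and TpnC4 are not.

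Of the clock and arousal precursors, 6 of 7 were detected, with a median of 24.5 CPM per kilobase. Pdf encodes pigment-dispersing factor, the synchronising peptide of the ventrolateral clock neurons. It lies on 3R at 26455462 to 26456141, minus strand, and had 375, 316 and 285 counts, or 45.0, 43.0 and 45.2 CPM. The libraries were nearly level, and per kilobase Pdf took rank 4 among the precursors at 65.3 CPM per kilobase ± 1.81 (SD, n = 3).

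ITP, the ion transport peptide of evening clock neurons and neurosecretory cells, had 893, 710 and 654 counts, or 107, 96.6 and 104 CPM. Its 4686 exon bases are the most of any detected precursor, and per kilobase ITP took rank 18 at 21.9 CPM per kilobase ± 1.15. Divided by its longest transcript of 3646 bases it stood at 28.1 CPM per kilobase. ITP has 5 annotated transcripts, and gene counts do not separate the amidated hormone from the longer ITPL forms. Its exons share 296 bases with CG4622 on the opposite strand (15.9 CPM), and the strand setting of the counting is not stated. In all, 7 matched precursor genes share exon bases with a gene on the opposite strand, ITP, SIFa, Lk, Ptth, CCAP, ETH and amn.

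Dh31, a calcitonin-like hormone of dorsal clock neurons and gut cells, had 517, 414 and 346 counts, or 62.0, 56.3 and 54.9 CPM. Mip, the myoinhibitory peptide precursor that acts on the sex peptide receptor and stabilises sleep, had 37.6, 37.6 and 38.3 CPM, a spread of 1.07% of the mean. No detected precursor had a smaller spread.

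CCHa1 and CNMa were low. CCHa1, a peptide of dorsal clock neurons and gut endocrine cells, had 37, 32 and 28 counts, or 4.44, 4.35 and 4.44 CPM. CNMa, a more recently described peptide of gut and brain that signals amino acid need, had 36, 39 and 35 counts, or 4.32, 5.31 and 5.56 CPM. Per kilobase they stood at 5.15 ± 0.0596 and 2.66 ± 0.344 CPM per kilobase.

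amn was not detected. amn (amnesiac) was found as a memory mutant and acts in a pair of large neurons that wrap the mushroom bodies. It lies on X at 19886108 to 19890060, minus strand, and had 2, 0 and 0 counts, or 0.240 CPM in replicate 1 and at most 0.408 and 0.476 CPM in replicates 2 and 3 at the floor of 3 counts. Its annotated exons share 140 bases with Hers, a gene on the opposite strand at 155 CPM.

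All 5 muscle-acting precursors were detected, and they split into high and low genes. Ms encodes myosuppressin, which slows gut and heart contraction, and it had 844, 714 and 558 counts, or 101, 97.2 and 88.6 CPM. Per kilobase Ms came next after Nplp3 at 81.2 CPM per kilobase ± 5.50 (SD, n = 3), above 91.1% of detected protein-coding genes. Proc, the proctolin precursor, had 449, 404 and 406 counts, or 53.9, 55.0 and 64.5 CPM.

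AstC and AstCC are the C-type allatostatins, and they lie beside each other on the minus strand of 2L, at 11076165 to 11081399 and 11083459 to 11085229. AstC had 454, 394 and 324 counts, or 54.5, 53.6 and 51.4 CPM. AstCC had 6, 9 and 7 counts, or 0.720, 1.22 and 1.11 CPM. Per kilobase the neighbours stood at 44.2 ± 1.31 and 0.868 ± 0.226 CPM per kilobase (SD, n = 3), and no library of AstCC came near the AstC range. FMRFa, the founding member of the FMRFamide family in flies, had 9.00, 9.66 and 11.1 CPM.

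The diuretic and water balance precursors were all 3 detected. Dh44, a hormone of the corticotropin-releasing factor family made in the pars intercerebralis, had 669, 611 and 496 counts, or 80.3, 83.1 and 78.7 CPM. Capa, whose peptides act on the renal tubules, had 304, 249 and 226 counts, or 36.5, 33.9 and 35.9 CPM, and per kilobase it ranked above Dh44 (51.0 against 33.6 CPM per kilobase). Lk, the leucokinin precursor, had 33, 30 and 15 counts, or 3.96, 4.08 and 2.38 CPM. Lk was low in replicate 3, but the Wilson intervals of its highest and lowest libraries overlapped. Of its 626 exon bases, 582 are shared with an antisense RNA gene at 1.48 CPM.

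The ecdysis and moulting hormones act mainly before and during the moult, and 3 of 4 were detected, with a median of 0.923 CPM per kilobase, below that of every other group of precursors here. CCAP, which drives the ecdysis motor programme, had 12, 9 and 5 counts, or 1.44, 1.22 and 0.794 CPM. Ptth, the prothoracicotropic hormone that triggers ecdysone release, had 13, 10 and 14 counts, or 1.56, 1.36 and 2.22 CPM. ETH, the ecdysis-triggering hormone of the Inka cells on the tracheae, had 5, 2 and 5 counts. Of the 755 exon bases of ETH, 683 overlap an antisense RNA gene at 2.29 CPM, so counts this low cannot be assigned to ETH without the strand setting.

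Eh, the eclosion hormone precursor, had 1, 7 and 1 counts and stayed under the detection minimum. Its mean was 0.410 CPM, of which replicate 2 gave most, and it became 0.139 CPM without replicate 2. With counts this low, the Wilson intervals of the libraries overlapped for all 4 genes.

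The order of levels was read per kilobase of exon. After Nplp3 came Ms (81.2), Dsk (75.9), Pdf (65.3), CCHa2 (65.0), sNPF (53.3), Capa (51.0), Dh31 (44.6), AstC (44.2) and Nplp1 (37.7), in CPM per kilobase. NPF (34.0), Dh44 (33.6), Tk (31.1), Hug (30.3), Proc (29.2), SIFa (27.9), Mip (27.1), ITP (21.9), Orcokinin (20.0), AstA (19.1) and Crz (19.0) followed. The tail was Nplp4 (13.9), FMRFa (6.95), Lk (5.55), CCHa1 (5.15), Akh (4.42), CNMa (2.66), Ptth (1.52), CCAP (0.923), AstCC (0.868) and ETH (0.736).

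Neighbours were told apart where the higher gene led in all 3 libraries and the mean log2 ratio exceeded its SD. Of the 30 neighbouring pairs, 20 did not meet this per kilobase, and 14 of 30 did not in the order by CPM without division by length. The 10 steps that did were Nplp3 over Ms, Dsk over Pdf, Capa over Dh31, AstC over Nplp1, Dh44 over Tk, Mip over ITP, Orcokinin over AstA, Crz over Nplp4, Nplp4 over FMRFa and CNMa over Ptth. The step of Mip over ITP rests on dividing by all annotated exon bases. Per kilobase of the longest transcript Mip had 27.1 CPM per kilobase, below ITP at 28.1 and Orcokinin at 27.8. By the exact permutation of signs over libraries (two-sided), 13 of the 30 pairs reached p = 0.25, the smallest that 3 libraries allow, and the lowest adjusted p (Benjamini-Hochberg) was 0.577.

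The spread between replicates was then tested over all genes at once. edgeR's quasi-likelihood fit asked of each gene whether its libraries varied beyond what its abundance predicts. Of 34 matched precursor genes, 27 passed the filter on low counts and 0 were called at an adjusted p under 0.05, where 0.320% of all 9049 genes tested were. At an unadjusted p under 0.05, 0 of the 27 precursor genes and 4.64% of all genes passed. That 0 moved with the libraries used: without replicate 1 it was 1 (CCHa2, against 5.43% of all genes), without replicate 2 it was 2 (SIFa and Nplp3, 6.07%), and without replicate 3 it was 0 (5.41%). None of these passed the adjusted threshold. Among the precursors CCHa2, SIFa and sNPF had the smallest p-values, at ranks 454, 572 and 1601 of the 9049 genes, each with an edgeR adjusted p of 0.992. The median range over libraries was 0.21 on the scale log2(TMM-scaled CPM + 1) for the tested precursors and 0.22 for all tested genes. A p above the threshold does not show that the libraries were alike.

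The 7 genes left out by the filter were Akh, CCAP, AstCC, ETH, Eh, amn and RYa. With every gene of at least 1 count tested, Akh was called (edgeR adjusted p = 8.35e-05), the only one of 33 precursor genes, where 0.914% of 12909 genes were called. Akh, SIFa and CCHa2 had an unadjusted p under 0.05 in that fit, where 5.33% of all genes did. DESeq2 marked the dispersion of Akh as an outlier too, again 1 of the 31 detected precursor genes against 1.27% of 10100 genes. These calls rest on replicate 3.

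**Figure D3:**
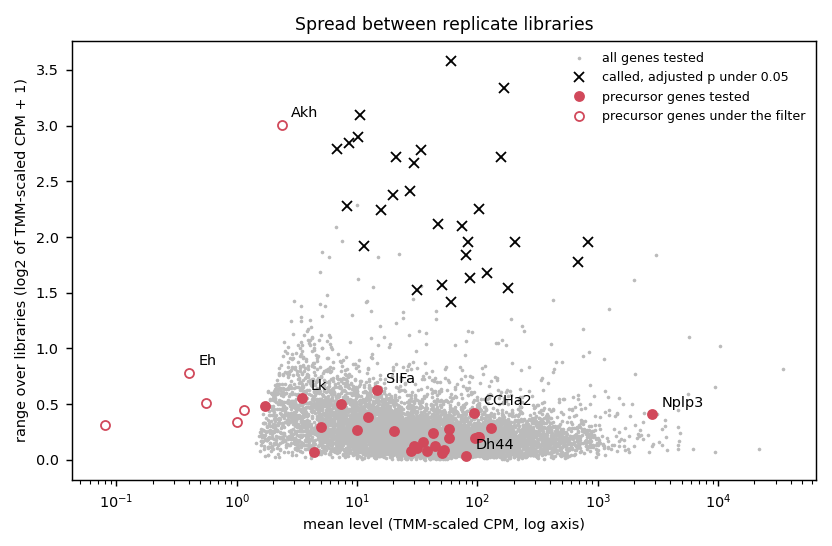
Range over the 3 libraries, as the difference of log2(TMM-scaled CPM + 1) between the highest and the lowest library, against mean TMM-scaled CPM on a log axis. Grey points are all 9049 tested genes, crosses the called genes, filled circles the 27 tested precursor genes and open circles precursor genes under the filter. Akh lies far above the other precursor genes, and the 27 tested ones sit within the cloud of tested genes.

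Counting error was also read for each gene by itself. For 5 of 31 detected precursor genes (Nplp3, sNPF, CCHa2, SIFa and Akh) the Wilson intervals of at least 1 pair of libraries did not overlap, and over all 10100 detected genes this held for 23.2%. Depth differs between genes, and intervals shrink with it, so this share was not tested.

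The library with the highest level was counted over the tested precursors. With TMM scaling, the highest library was replicate 1 for 15 of the 27, replicate 2 for 2 and replicate 3 for 10, while the shares over all tested genes were 30.6%, 35.8% and 33.6%. The precursor share of all counts was lowest in replicate 3, at 0.440%, 0.399% and 0.358% in replicates 1, 2 and 3. Without Nplp3 it was 0.117%, 0.116% and 0.115%. In CPM without TMM scaling, the neuronal marker sum was lowest in replicate 2, at 3525, 3162 and 3736 in replicates 1, 2 and 3. All 4 neuronal markers were lowest in replicate 2 with TMM scaling. Without TMM scaling the glial sum was 992, 853 and 890 CPM, a low carried by nrv2 alone. On that scale repo was highest in replicate 2 (57.5, 60.1 and 59.2 CPM) and alrm lowest in replicate 3. With TMM scaling repo was highest in replicate 3 (58.4, 58.6 and 59.8 CPM). Also without TMM scaling, the photoreceptor sum was 33466, 36039 and 35238 CPM. It was highest in replicate 2 through ninaE and Arr2, whereas trp was lowest there (3815, 3439 and 3792 CPM). With TMM scaling ninaE was highest in replicate 3 (20970.3, 22216.5 and 22400.1 CPM). Arr2 was still highest and trp still lowest in replicate 2 on that scale. The part of cell composition in these values was not tested. The 2 precursors highest in replicate 2 with TMM scaling were CCHa2 and Dsk. The processing and secretion genes had like numbers, 11, 2 and 8 of 21, and a difference between the lists was not tested. In CPM without TMM scaling the numbers for the same 27 precursors were 10, 6 and 11, and the shares over all tested genes were 24.0%, 46.8% and 29.2%.

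The genes that process and secrete peptides were set beside the precursors from a list of 23, of which 21 were matched (Phm and Pal1 were not) and all 21 were detected. Their median was 93.3 CPM, against 31.6 CPM for the detected precursors. Per kilobase it was 26.7 CPM per kilobase, and the middle one of the 31 detected precursors, SIFa, stood at 27.9 CPM per kilobase. 7B2, the chaperone of the convertase amon, had 296, 299 and 295 CPM and 258 CPM per kilobase ± 1.64. IA-2, a membrane protein of dense-core vesicles, had 2405, 2137 and 2607 CPM and 232 CPM per kilobase ± 23.0, and Pal2, a lyase of the amidation step, had 330, 327 and 330 CPM and 143 CPM per kilobase ± 0.853.

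amon itself, the fly prohormone convertase of neuropeptides, had 308, 273 and 307 CPM and 74.1 CPM per kilobase ± 5.03. svr, the carboxypeptidase that trims the cut ends, had 338, 344 and 343 CPM, or 39.8 CPM per kilobase ± 0.346. The lowest of the list were isoQC, a glutaminyl cyclase (8.11 CPM per kilobase), dimm, the transcription factor of peptidergic cells (2.40, 1.90 and 2.22 CPM, or 0.660 CPM per kilobase), and Nep5, a neprilysin-like peptidase gene (0.572 CPM per kilobase). In the edgeR fit 0 of the 21 were called, against 0.320% of all tested genes, and 0 had an unadjusted p under 0.05. DESeq2 marked 0 of the 21.

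**Figure D4:**
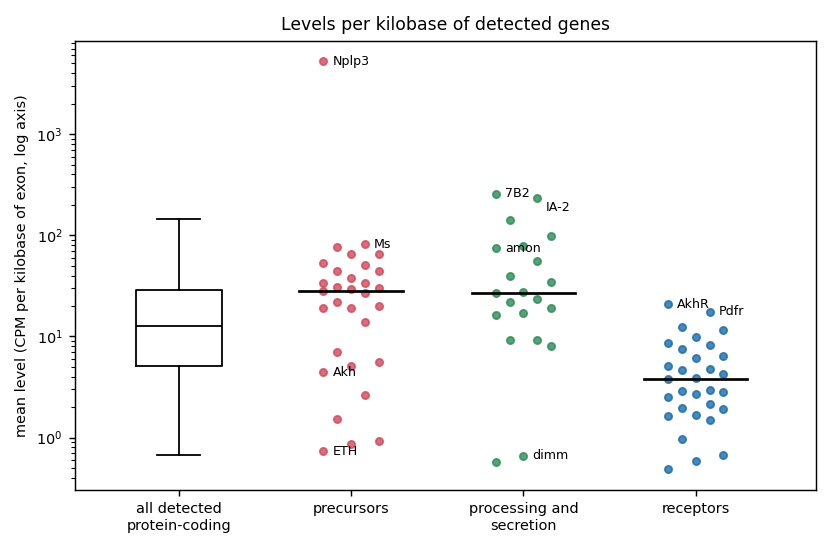
Mean level in CPM per kilobase of exon, on a log axis, of detected genes. The box shows the quartiles and median of all 9479 detected protein-coding genes with whiskers from the 5th to the 95th percentile, points are single genes, and bars are list medians. Precursors and processing genes centre on 27.9 and 26.7 CPM per kilobase (31.6 and 93.3 CPM before division by length), receptors at 3.80, and Nplp3 stands alone at 5260.

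Receptor genes were lower than precursors. All 32 listed receptor genes were matched and 31 were detected, with a median of 3.80 CPM per kilobase. The highest were AkhR (20.8 CPM per kilobase ± 2.87), Pdfr (17.5 ± 2.29) and SPR (12.3 ± 0.930), and the lowest detected were RYa-R (0.681), CapaR (0.585) and PK2-R2 (0.487). SPR shares 999 of its 3730 exon bases with frma on the opposite strand, at 58.3 CPM. Dh44-R2 shares 1087 of 3278 with fdl and CG34234, at up to 90.6 CPM. Without the strand setting, reads of these bases cannot be told apart, and the ratios of Mip to SPR and Dh44 to Dh44-R2 carry this doubt. In the edgeR fit 0 of the 28 tested receptor genes were called, against 0.320% of all tested genes, and 0 had an unadjusted p under 0.05. DESeq2 marked 0 of the 31 detected ones.

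Each precursor with a listed receptor gene was then set against that receptor in the same library, per kilobase. ITP, Nplp1, Nplp3, Nplp4, Orcokinin, AstCC, Eh and amn had no receptor listed here and are in no pair. In 30 of 32 pairs both genes were detected. The precursor was higher in all 3 libraries in 26 pairs, the receptor in 3, and the median log2 ratio was 2.45. Hug, Ms, Dsk, AstC, AstA and Dh44 each enter with both of their listed receptors, so the pairs are not independent. The precursor led in all of those pairs. Without division by length, the median was 1.63, and the precursor was higher on average in 20 pairs. The values are levels of whole heads, where a peptide and its receptor may be in different cells.

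The ratios spanned a wide range. Capa exceeded CapaR by a log2 ratio of 6.39 ± 0.37 (SD, n = 3), with 8, 6 and 9 counts for CapaR, a receptor known from the renal tubules. Hug exceeded PK2-R2 by 5.94 ± 0.47 and PK2-R1 by 3.97 ± 0.25. CCHa2 exceeded CCHa2-R by 5.28 ± 0.49.

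Ms exceeded its receptors MsR2 and MsR1 by 4.85 ± 0.23 and 4.01 ± 0.30. Dsk exceeded CCKLR-17D1 by 4.66 ± 0.31, NPF exceeded NPFR by 4.11 ± 0.06, and AstC exceeded AstC-R2 by 3.54 ± 0.18. These are all log2 ratios per kilobase, and each precursor led in all 3 libraries.

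Other pairs lay closer together. sNPF exceeded sNPF-R by a log2 ratio of 3.11 ± 0.16, Tk exceeded TkR99D by 2.71 ± 0.19, and Dh31 exceeded Dh31-R by 2.17 ± 0.08. Dh44 exceeded its receptors Dh44-R1 and Dh44-R2 by like amounts, 2.17 ± 0.14 and 2.02 ± 0.14. Pdf exceeded Pdfr by 1.91 ± 0.22 per kilobase, but Pdfr has the longer mRNA, and by counts alone the ratio was -0.87. Mip exceeded its receptor gene SPR by 1.14 ± 0.10 per kilobase, and here too the direction turned by counts alone, to -0.27. By counts alone it also turned for Crz with CrzR (-1.15), CCHa1 with CCHa1-R (-0.34), Lk with Lkr (-0.32) and FMRFa with FMRFaR (-0.31).

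The 3 pairs in which the receptor led were CNMa with CNMaR (log2 ratio -1.26 ± 0.15), ETH with ETHR (-1.72 ± 0.86) and Akh with AkhR (-4.65 ± 3.56). The ETH ratio rests on 5, 2 and 5 counts. Of the 755 exon bases of ETH, 683 overlap an antisense RNA gene, so its ratio carries the strand doubt too. For Akh the ratio was -0.67 in replicate 3, the library that held nearly all its counts, and -5.74 in replicate 1. CCAP and CCAP-R did not differ beyond their spread (0.01 ± 0.16).

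**Figure D5:**
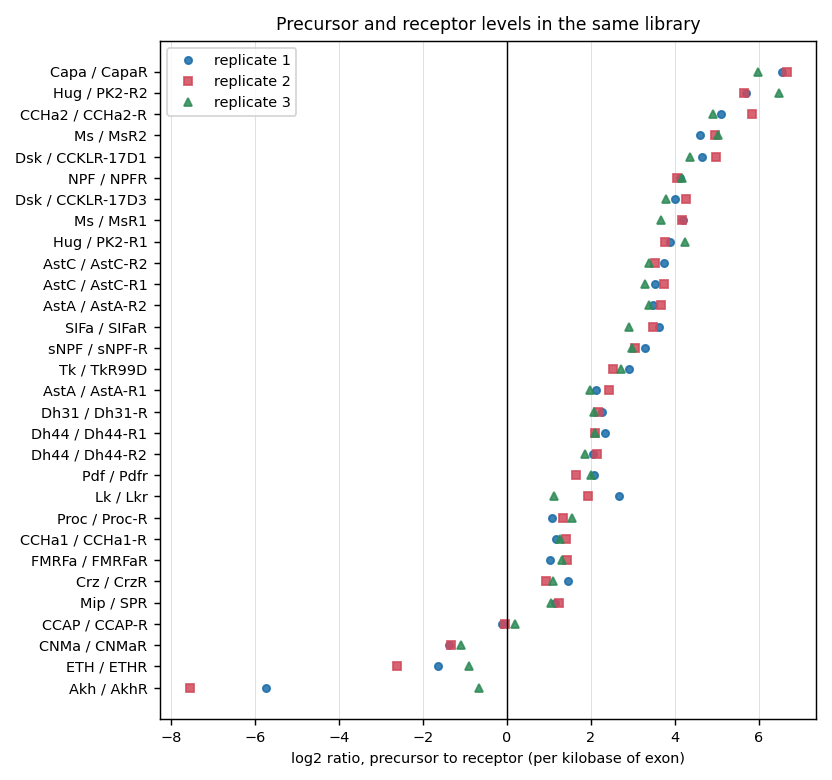
Log2 ratio of precursor to receptor level per kilobase of exon in each library, with 0.5 count added to each gene, for the 30 pairs in which both genes were detected. Points are the single libraries, and the vertical line at 0 marks equal levels. 26 pairs lie to the right of 0 in every library, 3 lie to the left, and the Akh points spread from -7.54, where Akh had 0 counts, to -0.67.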

How the data were processed

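The members and gene lists were chosen with earlier results of these data known. The authors deposited raw read counts per FlyBase gene ID, 1 column per library, and 0 per-sample columns were left unused. Per the submitters' processing notes the tools were STAR 2.7.4a and featureCounts with build dm6. The strand setting and the rule for reads that map to several places are not given in the sources used here. The kit, TruSeq Stranded mRNA, selects polyadenylated RNA.

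Symbols and exon lengths came from Ensembl release 115 (BDGP6, dm6 coordinates), later than the release the study used, and 17252 table genes had a symbol. Counts were scaled to CPM over 1000000 counts. A level per kilobase used the union of annotated exons. Wilson 95% intervals and the floor of 3 counts cover counting error only. Log2 ratios had 0.5 count added to each gene.

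Replicate spread was fitted with edgeR 4.0.16 in R 4.3.3 (TMM, filterByExpr, intercept only). Each quasi-dispersion was compared with its prior by an F upper tail, with Benjamini-Hochberg adjustment over all genes. DESeq2 1.42.0 dispersion outliers were an alternative. As a check of the code, the fit was run on data simulated from its own fitted dispersions. Its power to find small changes is not reported here. All 34 matched precursors are named, with counts for the 12 highest, the 6 lowest detected, those under 10 counts in sum and the 3 with the smallest p-values. For processing and receptor genes the 3 highest and 3 lowest detected per kilobase are named, and amon, svr and the receptors of the pairs described were added after their values were seen. Precursor sequence features were not analysed here.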

Additional observations from a re-analysis of the deposited data

How the results depend on the processing

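Over 42 results there were 244 alternative values, of which 219 lay inside the replicate spread (1 SD) of the reported value or, for a number of genes, within 1.5 times of it. Of 198 alternative member levels 186 did. A mean level with 1 of 3 libraries left out lies inside 1 SD by arithmetic, so such values carry no information here. Of the 118 alternatives that kept all libraries 96 did, and of the 99 such member levels 87 did. The member levels that moved all did so without mitochondrial genes in the total. That change raises all precursor levels by nearly the same factor, so it moves the genes with the smallest spread. Scaling by TMM or DESeq2 hardly changes a mean over 3 libraries. These numbers therefore carry little information on how firm the levels are. No paired analysis was possible because there is only 1 group of libraries. Without Nplp3 the share of counts became 0.116%. Without mitochondrial genes in the total, the median precursor level became 33.6 CPM and that of the processing genes 99.2 CPM, by construction. With the undetected genes included, the median precursor had 28.7 CPM. Per kilobase of the longest transcript it had 28.5 CPM per kilobase, and without division by length the median precursor to receptor log2 ratio was 1.63. The called precursor was 1 (Akh) with no filter and 1 by DESeq2, and 0 in the fits with a replicate left out, which kept the filter and so did not test Akh. Neighbours not told apart were 14 of 30 in CPM and 20 per kilobase. Called genes overall were 118 with no filter, 128 by DESeq2 and 44 to 57 with a replicate left out. Of these, 29 of 55 were shared with the 29 of the full fit without replicate 1, 11 of 57 without replicate 2 and 25 of 44 without replicate 3. Leaving out 1 library moved the mean level by over 1.5 times for Akh (0.0600 to 3.55 CPM), Eh (0.139 to 0.556 CPM) and amn (0 to 0.120 CPM). Precursors under 10 counts cannot be ranked at this depth.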

Other observations

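Peptide and protein hormone precursors outside the list were read as well, chosen after the values of the listed genes were seen and given as values only. Gbp2, a growth-blocking peptide gene, had 1045, 1417 and 868 counts, with a mean of 152 CPM ± 35.9 (SD, n = 3) and replicate 2 highest, and Gbp1 had 28.8 CPM ± 4.71. Lst, the limostatin precursor described in the Akh-producing cells of the corpora cardiaca, had 644, 584 and 497 counts, or 78.6 CPM ± 1.13. It was nearly level at 77.3, 79.5 and 78.9 CPM, also in replicates 1 and 2, where Akh had 1 and 0 counts. Which cells gave the Lst counts was not tested. The spab gene had 52.2 CPM ± 2.61, Trissin had 17.0 CPM ± 2.48 and natalisin, a peptide of mating behaviour, had 14.7 CPM ± 1.08.

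The glycoprotein hormone subunit Gpb5 had 6.60 CPM ± 1.20, and its partner Gpa2 had 8, 9 and 6 counts. The bursicon subunits, which harden the cuticle after the moult, were at the floor, with 0, 1 and 0 counts for Burs and 0 counts in every library for Pburs.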
